A study of Homo sapiens with 6 samples.

Results

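The genes described are those for the eukaryotic translation initiation factors (eIFs) in ribosome-bound mRNA of MDA-MB-231 cells. They were chosen by name alone: every gene whose symbol begins with EIF and a digit from 1 to 6, without pseudogenes, hyphenated read-through genes, the eIF2 kinases (EIF2AK genes) and the eIF4E-binding proteins (EIF4EBP genes). This gave 52 of the 21619 genes counted. The rule uses no measured value. The cells are a line from a triple-negative breast cancer and carried EGFP fused to the ribosomal protein L10a, so that ribosomes and the mRNAs on them could be captured through the EGFP (translating ribosome affinity purification, TRAP). All cultures, the controls included, carried this fusion and spent 24 h in 0.2% serum. CXCL12, a chemokine, and IGF1, a growth factor, were then given together for 6 h, at 30 ng/mL and 10 ng/mL (lower dose) or at 300 ng/mL and 100 ng/mL (higher dose), and untreated cultures received neither. Each of the 3 groups had 2 libraries, a and b, which the labels call biological replicates, and p-values measure the spread between these libraries. Neither the promoter of the fusion gene nor whether the line is 1 clone is stated in the labels.

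Initiation factors bring the small ribosomal subunit, the initiator methionyl-tRNA and the mRNA together and release the ribosome at the start codon. eIF2 carries the initiator tRNA and is reloaded with GTP by eIF2B, eIF3 is a large scaffold on the small subunit, the eIF4 factors bind and unwind the capped end of the mRNA, and eIF1, eIF1A, eIF5 and eIF5B act at start codon selection and subunit joining. IGF1 signalling through mTOR is known to release the cap-binding protein eIF4E from its binding proteins, and eIF2 is a target of the stress kinases. Ribosome capture measures the mRNAs of these factors, not the proteins or their phosphorylation.

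Reads on genes came to between 26255079 and 30280322 per library, and values are given as CPM, read counts scaled by library size with TMM factors, which lay between 0.997 and 1.003. Total RNA of the cultures was not analysed here, so the amount of an mRNA and its share on ribosomes cannot be told apart, nor can fewer cells holding an mRNA and less of it per cell. Of the genes listed as present in the cell line, VIM, CD44, EGFR, KRT8, KRT18, AXL and MSN were all abundant, whereas SPARC, also on that list, had only 5 to 11 reads. The oestrogen and progesterone receptor genes ESR1 and PGR had 0 to 5 reads and CDH1 had 2 to 13, but other genes listed as low or absent were detected: ERBB2, the receptor gene that completes the triple-negative definition, at 54.3 to 77.3 CPM, EPCAM with 319 to 393 reads and GATA3 with 247 to 319. Of genes that mark other cells, CD3E of T cells had 0 reads and PTPRC of blood cells had 4 to 14. PECAM1 of endothelium was detected in every library, with 32 to 55 reads. Each library was counted as a sample because the labels call a and b biological replicates. Replicates differed by more than counting noise in every group (chi-square per degree of freedom 1.52 to 1.98). The common coefficient of variation beyond counting noise was small, at 1.79%. These values cannot show whether a and b came from separate cultures, and the small p-values rest on this small spread.

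Of the 52 genes, 47 had enough reads to be tested. The 5 others were EIF1AY, EIF3CL, EIF4A1 and EIF4E1B with 0 reads in every library, and EIF3C with 1 to 4 reads. For 3 of them the sequence is shared with another gene. In GENCODE v29 transcripts, 96.3% of the 50-base stretches of EIF4A1, the main RNA helicase of cap-dependent initiation, also occur in other genes, including the read-through gene SENP3-EIF4A1, which itself had 1 to 9 reads. The shares were 97.3% for EIF3C and 98.8% for EIF3CL, near-identical copies that encode an eIF3 subunit. Whether counting by gene set these genes to 0 was not tested, and their levels are not known from these files.

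At the lower dose 14 of the 47 tested genes rose, 6 fell and 27 did not pass (42.6% passed), against 16.7% of all 13548 tested genes that rose and 15.9% that fell, 32.6% in either direction (edgeR quasi-likelihood F test, Benjamini-Hochberg adjusted p under 0.05). At the higher dose 25 rose, 8 fell and 14 did not pass (70.2% passed), where 28.1% of all genes rose and 28.2% fell, 56.3% in either direction. Between the doses 19 were higher at the higher dose, 5 were lower and 23 did not pass, beside 16.4% and 17.6% of all genes, 34% in either direction. The median log2 fold change of the initiation factor genes was 0.035 at the lower dose and 0.097 at the higher dose, whereas that of all tested genes was -0.0021 and -0.00082. Most changes were small: 2 initiation factor genes, EIF4G2 and EIF2C4, changed at least 1.5-fold at the higher dose, among 935 genes in all. The tested genes of eIF1 and eIF1A, 4 of the 5 eIF5 genes and EIF6 rose from the lower dose on, those of eIF2 rose at the higher dose, and eIF2B, eIF3 and eIF4 held genes that moved both ways.

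**Figure D1:**
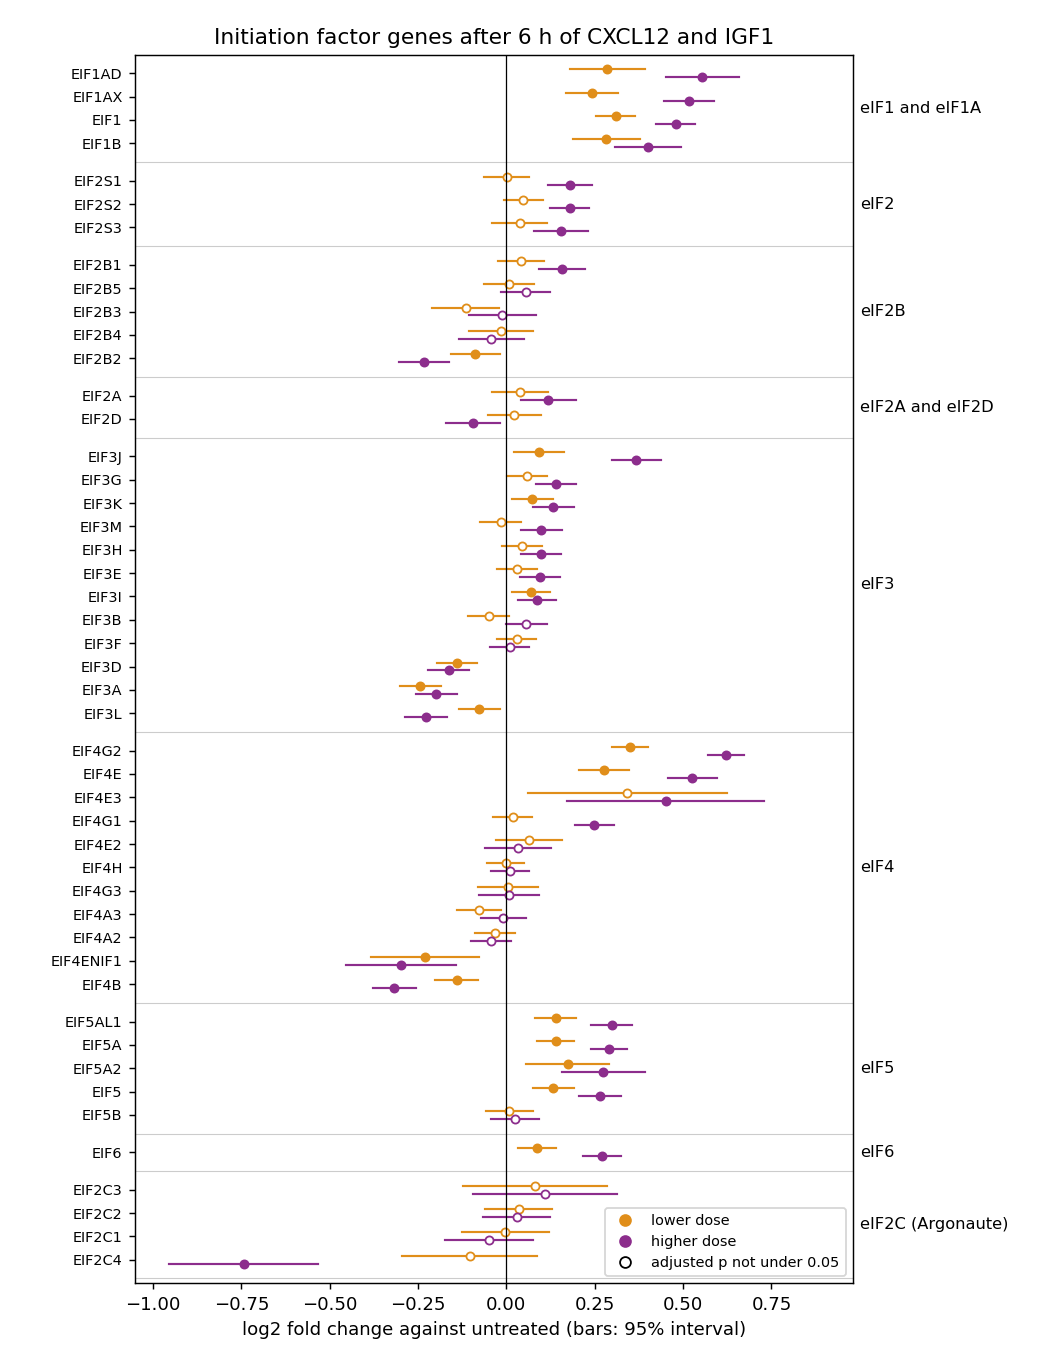
Log2 fold change against untreated (x axis) for each of the 47 tested genes, grouped by factor, at the lower dose (orange) and the higher dose (purple), with bars for the 95% interval and open circles where the adjusted p was not under 0.05. The 4 genes of eIF1 and eIF1A lie between 0.24 and 0.31 at the lower dose and between 0.40 and 0.55 at the higher dose, and EIF2C4 is the lowest at -0.74.

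Summed over their genes, eIF1 and eIF1A mRNAs stood at 123% of the untreated mean at the lower dose and at 140% at the higher dose (n = 2 libraries each). The sums were 109% and 120% for eIF5, 106% and 121% for eIF6 and 108% and 119% for eIF4. eIF2 stood at 103% and then 113%. eIF2B, at 98.3% and 99.3%, and eIF3, at 99.6% and 103%, stayed within 3% of the untreated mean. A sum is weighted toward abundant and long mRNAs, so that single genes can move against it. The eIF4 sum averaged 3100 CPM untreated, 3344 at the lower dose and 3681 at the higher dose. EIF4G2 alone held 942.5, 1200 and 1451 CPM of it, so most of the rise of this sum was that of EIF4G2. EIF4A1 and EIF3C had almost no counted reads, so the eIF4 and eIF3 sums in effect lack them. All 52 genes together summed to 10628 and 10621 CPM untreated, 11216 and 11215 at the lower dose and 12092 and 12085 at the higher dose. The 3 groups did not overlap in this total.

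**Figure D2:**
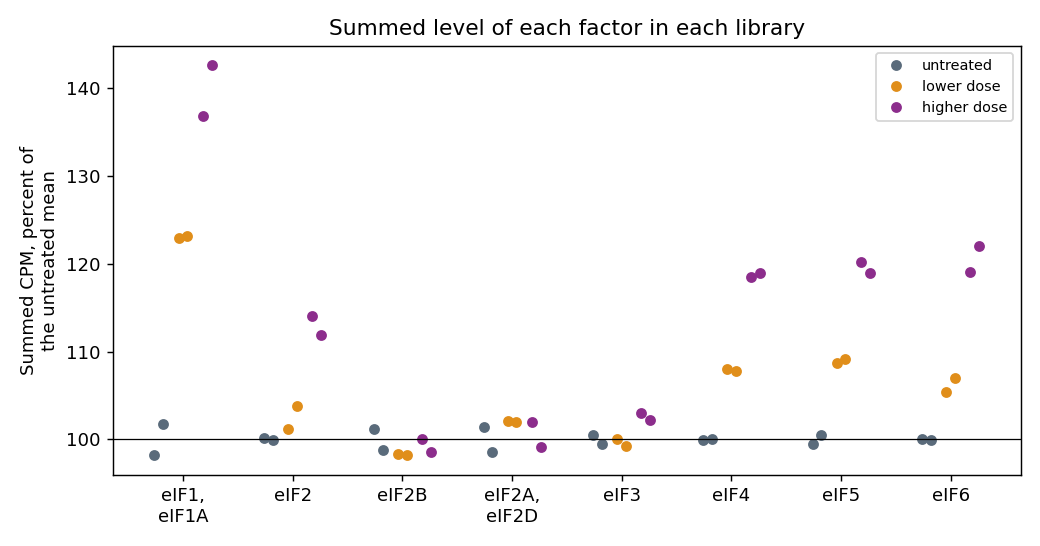
Summed CPM of the genes of each factor in each library, as a percent of the untreated mean (y axis, which does not start at 0), with 2 points for each group. eIF1 and eIF1A reached 140% on average at the higher dose, while eIF2B stood at 99.3% and eIF3 at 103%.

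eIF1 and eIF1A bind beside the decoding site of the small subunit and keep it scanning until it meets a start codon. All 4 tested genes rose at both doses, and the median log2 fold change was 0.28 at the lower and 0.50 at the higher dose. EIF1 had 555 and 572 CPM in the untreated libraries, 695 and 702 at the lower dose, and 766 and 805 at the higher dose. It rose by 0.31 ± 0.027 (adjusted p = 2.10e-13) at the lower dose on the log2 scale (log2 fold change ± SE). At the higher dose it rose by 0.48 ± 0.027 (adjusted p = 8.46e-22), both against untreated, with no overlap between the groups. EIF1AX, the X-linked eIF1A gene, had 84.0 and 90.6 CPM in the untreated libraries, 105 and 102 at the lower dose, and 126 and 124 at the higher dose. Its log2 fold change was 0.52 ± 0.036 (adjusted p = 2.17e-18) at the higher dose, and all treated libraries lay above the untreated ones. EIF1B, a close homologue of EIF1, had 40.8 and 44.1 CPM in the untreated libraries, 52.4 and 51.1 at the lower dose, and 54.2 and 58.2 at the higher dose. It rose by 0.28 ± 0.047 (adjusted p = 2.96e-06) and by 0.40 ± 0.047 (adjusted p = 1.08e-10), but its further rise between the doses, 0.12 ± 0.045 (adjusted p = 0.0343), no longer passed without lower dose a (adjusted p = 0.0504), lower dose b (0.187) or higher dose b (0.427), nor after the counts were corrected for length and GC content, at 0.049 (adjusted p = 0.407). EIF1AD, which encodes a protein with an eIF1A-like domain that is not an initiation factor by function, had 29.4 and 28.2 CPM in the untreated libraries, 35.1 and 35.0 at the lower dose, and 42.5 and 42.0 at the higher dose. It showed the highest log2 fold change of this group, 0.55 ± 0.051 (adjusted p = 7.69e-14) at the higher dose.

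eIF2 has an alpha subunit (EIF2S1, the one that stress kinases phosphorylate), a beta subunit (EIF2S2) and a gamma subunit that binds GTP and the initiator tRNA (EIF2S3). None of the 3 genes passed at the lower dose, and all 3 rose at the higher dose against both other groups. EIF2S1 had 150.5 and 155 CPM in the untreated libraries, 152 and 154 at the lower dose, and 175 and 171 at the higher dose. EIF2S2 had 428 and 428 CPM untreated, 436 and 449 at the lower dose, 489.7 and 479 at the higher dose. EIF2S3 had 82.2 and 75.6 CPM untreated, 80.2 and 81.5 at the lower dose, 87.6 and 87.7 at the higher dose. For all 3, both higher dose libraries were above every other library, while the untreated and lower dose libraries of EIF2S1 and EIF2S3 overlapped. The log2 fold changes at the higher dose were close to each other: 0.18 ± 0.031 (adjusted p = 1.70e-06) for EIF2S1, 0.18 ± 0.027 (adjusted p = 1.14e-07) for EIF2S2 and 0.16 ± 0.038 (adjusted p = 4.58e-04) for EIF2S3. At the lower dose they were 0.00083 (95% interval -0.062 to 0.064, adjusted p = 0.988), 0.048 (95% interval -0.0069 to 0.10, adjusted p = 0.183) and 0.038 (95% interval -0.039 to 0.12, adjusted p = 0.491). The EIF2S3 call at the higher dose was lost without untreated b (adjusted p = 0.0798), and its call between the doses without lower dose a (0.0769), higher dose a (0.0627) or higher dose b (0.0707). Per kilobase of transcript, the untreated levels of the 3 subunits were unequal, at 34.0, 161 and 27.6 CPM for the alpha, beta and gamma subunit genes. Of their 50-base stretches, 0%, 22.55% and 23.2% also occur in other genes, so reads of such copies may be split or left uncounted.

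eIF2B, the exchange factor that returns eIF2 to its GTP form, has 5 different subunits, and its genes did not move together. EIF2B1, the regulatory alpha subunit, had 123 and 121 CPM in the untreated libraries, 126 and 125 at the lower dose, and 138 and 134 at the higher dose. It did not pass at the lower dose and rose by 0.16 ± 0.033 (adjusted p = 4.21e-05) at the higher dose. EIF2B2, the beta subunit, had 131 and 121 CPM in the untreated libraries, 117 and 119 at the lower dose, and 109 and 105 at the higher dose. It fell by 0.23 ± 0.035 at the higher dose (adjusted p = 1.03e-07), with the 2 higher dose libraries below all others. Its smaller fall at the lower dose, -0.088 ± 0.035 (adjusted p = 0.0444), was lost in 7 of the 13 alternative analyses, among them those without untreated a, lower dose a, lower dose b, higher dose a or higher dose b (adjusted p 0.0508 to 0.524 over the 7). The call of EIF2B1 between the doses was lost without higher dose a (adjusted p = 0.0845). The other subunit genes passed in none of the comparisons. EIF2B3 (gamma) had 46.3 and 45.1 CPM untreated, 43.7 and 40.7 at the lower dose, 45.6 and 45.1 at the higher dose. EIF2B4 (delta) had 47.7 and 48.7 CPM untreated, 46.3 and 49.2 at the lower dose, 46.4 and 47.3 at the higher dose. EIF2B5, the catalytic epsilon subunit, had 94.1 and 94.2 CPM untreated, 95.6 and 93.7 at the lower dose, 97.3 and 98.2 at the higher dose. The untreated and lower dose libraries overlapped for EIF2B4 and EIF2B5, and their log2 fold changes at the higher dose were -0.042 (95% interval -0.13 to 0.049, adjusted p = 0.452) and 0.054 (95% interval -0.016 to 0.12, adjusted p = 0.186). For EIF2B3 the value was -0.011 (95% interval -0.11 to 0.083, adjusted p = 0.856), and its lower dose libraries lay below the others, which passed without lower dose a (adjusted p = 0.0264), with RLE size factors (0.0495) and after the length and GC correction (0.0119). Without lower dose a the difference between the doses passed too (0.0362).

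EIF2A and EIF2D encode factors that can deliver initiator tRNA without eIF2, and neither is a subunit of it. At the higher dose EIF2A rose by 0.12 ± 0.039 (adjusted p = 0.00817), and EIF2D fell by 0.095 ± 0.038 (adjusted p = 0.0319). The higher dose and untreated libraries did not overlap in either gene, but both changes were small. The EIF2A call was lost without untreated b (adjusted p = 0.0759) or higher dose a (0.107), and that of EIF2D without untreated a (0.180) or higher dose b (0.194).

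eIF3, the largest initiation factor, binds the small subunit and keeps it apart from the large one. Of its 12 tested genes, 3 rose and 3 fell at the lower dose, and 7 rose and 3 fell at the higher dose, with a median log2 fold change of 0.029 and 0.090. After the counts were corrected for transcript length and GC content, 0 rose and 4 fell at the lower dose and 3 rose and 5 fell at the higher dose, and the medians turned to -0.028 and -0.042. EIF3J, a loosely bound subunit near the decoding centre, had 100.0 and 100.3 CPM in the untreated libraries, 109 and 104 at the lower dose, and 127 and 132 at the higher dose. It rose by 0.37 ± 0.034 (adjusted p = 1.21e-13) at the higher dose, the highest value among the eIF3 genes, and its 2 higher dose libraries stood apart from the rest. EIF3G, which carries an RNA-binding domain, had 302 and 298 CPM untreated, 316 and 308 at the lower dose, 329 and 332 at the higher dose. EIF3K, a small peripheral subunit, had 201 and 203 CPM untreated, 215 and 209.9 at the lower dose, 219.7 and 223 at the higher dose. These 2 genes changed less, by 0.14 ± 0.028 (adjusted p = 2.02e-05) and 0.13 ± 0.029 (adjusted p = 1.08e-04) at the higher dose.

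The eIF3 genes that fell were EIF3L, EIF3A and EIF3D. EIF3A, which encodes the largest scaffold subunit, had 259.6 and 259 CPM untreated, 219.5 and 219 at the lower dose, 230.3 and 222 at the higher dose. It fell at the lower dose, at -0.24 ± 0.029 (adjusted p = 1.26e-09), against -0.20 ± 0.029 (adjusted p = 4.04e-08) at the higher dose. EIF3L had 240.4 and 238 CPM untreated, 230.3 and 224 at the lower dose, 207 and 202 at the higher dose. It fell further with dose, by 0.076 ± 0.029 (adjusted p = 0.0372) and then by 0.23 ± 0.029 (adjusted p = 1.99e-09), both against untreated. EIF3D, whose product can bind the cap of some mRNAs, had 252 and 248 CPM untreated, 228 and 225 at the lower dose, 225 and 221 at the higher dose, and its log2 fold changes were -0.14 ± 0.029 (adjusted p = 9.93e-05) and -0.16 ± 0.029 (adjusted p = 2.48e-06). For all 3, both groups of treated libraries lay below the untreated ones. The other 6 genes were within 0.10 of no change at the higher dose on the log2 scale: EIF3M, EIF3H, EIF3E and EIF3I rose and EIF3B and EIF3F did not pass. Several calls in this factor were near the threshold or were lost when 1 library was left out. Those of EIF3I and EIF3K at the lower dose were lost under 11 and 12 of the 13 alternatives, including every one that left out 1 library (adjusted p 0.0569 to 0.294 and 0.0559 to 0.334). The EIF3J call at the lower dose, 0.092 ± 0.035 (adjusted p = 0.0393), was lost without untreated a (adjusted p = 0.122), untreated b (0.0944) or lower dose a (0.412) and after the length and GC correction (0.429, at 0.038), and that of EIF3L without untreated a (0.105) or lower dose b (0.296). At the higher dose EIF3E was lost without higher dose a (0.186) and EIF3I without higher dose b (0.0813). Between the doses EIF3G was lost without lower dose b (0.202), higher dose a (0.0563) or higher dose b (0.124), and EIF3B without higher dose a (0.110). EIF3B passed as higher at the higher dose without untreated a (0.0340) and after the length and GC correction, at 0.12 (adjusted p = 4.43e-05), and EIF3E passed between the doses without untreated a (0.0477), untreated b (0.0393) or higher dose b (0.0351).

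Among the eIF4 genes, 2 rose and 2 fell at the lower dose and 4 rose and 2 fell at the higher dose, of 11 tested. EIF4E, the cap-binding protein whose amount and binding proteins limit cap-dependent initiation, had 94.0 and 97.3 CPM in the untreated libraries, 119.7 and 112 at the lower dose, and 137 and 139 at the higher dose. It rose by 0.28 ± 0.036 (adjusted p = 1.10e-08) and by 0.53 ± 0.035 (adjusted p = 3.61e-19), a 1.44-fold level at the higher dose, with no overlap between any 2 groups. Its homologue EIF4E2, which binds the cap weakly and is known as a repressor, had 43.3 and 44.3 CPM untreated, 46.9 and 44.7 at the lower dose, 44.9 and 44.8 at the higher dose. EIF4E2 did not pass, with a log2 fold change of 0.033 (95% interval -0.060 to 0.13, adjusted p = 0.572) at the higher dose. EIF4E3 was scarce, with 89 to 134 reads per library, and had 3.38 and 3.33 CPM untreated, 4.33 and 4.18 at the lower dose, 4.47 and 4.70 at the higher dose. It rose at the higher dose by 0.45 ± 0.14 (adjusted p = 0.00467) with edgeR, but not with DESeq2 (adjusted p = 0.0815). EIF4E made up 66.8% and 67.1% of the summed CPM of these 3 genes untreated, 70.0% and 69.6% at the lower dose and 73.5% and 73.7% at the higher dose.

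The eIF4G scaffolds join the cap-binding protein to the helicase and eIF3. EIF4G2, also called DAP5 or p97, encodes a relative that lacks the eIF4E-binding part and is known for initiation without the cap-binding protein. It had 939 and 946 CPM in the untreated libraries, 1201 and 1199.7 at the lower dose, and 1454 and 1448 at the higher dose. Its log2 fold changes were 0.35 ± 0.025 (adjusted p = 3.82e-16) and 0.62 ± 0.025 (adjusted p = 8.43e-28), or 1.54-fold at the higher dose, the largest rise of any initiation factor gene tested. EIF4G1, the main scaffold, had 458 and 472 CPM untreated, 464 and 478 at the lower dose, 553 and 553 at the higher dose. It did not pass at the lower dose, 0.018 (95% interval -0.037 to 0.072, adjusted p = 0.671), except after the length and GC correction (adjusted p = 7.60e-04), and rose by 0.25 ± 0.027 (adjusted p = 1.69e-11) at the higher dose, where both libraries exceeded all others. EIF4G3 had 60.9 and 66.8 CPM untreated, 63.0 and 65.2 at the lower dose, 65.6 and 63.0 at the higher dose, groups that overlapped, with a log2 fold change of 0.0073 (95% interval -0.078 to 0.092, adjusted p = 0.900) at the higher dose. It passed as higher after the length and GC correction, at 0.11 (adjusted p = 0.0145). EIF4G2 held 64.4% and 63.7% of the summed CPM of the 3 genes untreated, 69.5% and 68.8% at the lower dose, and 70.2% in both higher dose libraries.

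None of the 4 tested genes for eIF4A helicases and their cofactors rose, and EIF4A1 was not tested. EIF4A2, the second eIF4A helicase, had 370.2 and 369.8 CPM untreated, 367 and 357 at the lower dose, 351 and 366 at the higher dose. EIF4A3, a relative that belongs to the exon junction complex, had 153 and 150.4 CPM untreated, 145 and 143 at the lower dose, 153 and 149 at the higher dose. EIF4H, a small helicase cofactor, had 704 and 688 CPM untreated, 700.1 and 690.0 at the lower dose, 693 and 709 at the higher dose. The groups of EIF4H overlapped, while the treated libraries of EIF4A2 lay slightly below the untreated ones. None of these 3 genes passed in any comparison, with log2 fold changes at the higher dose of -0.045 (95% interval -0.10 to 0.012, adjusted p = 0.178), -0.0086 (95% interval -0.071 to 0.054, adjusted p = 0.837) and 0.011 (95% interval -0.042 to 0.064, adjusted p = 0.754). After the length and GC correction EIF4A2 passed as lower at both doses (adjusted p = 0.0201 and 7.24e-05), and EIF4A3 passed as lower at the lower dose in 5 of the 13 alternatives: that correction (adjusted p = 0.0121), RLE size factors (0.0437), both other filters (0.0477 and 0.0488) and without untreated b (0.0460). EIF4B, the larger cofactor that stimulates eIF4A and is a target of growth-factor kinases, had 257 and 248 CPM in the untreated libraries, 225 and 233 at the lower dose, and 207 and 198 at the higher dose. It fell by 0.14 ± 0.030 (adjusted p = 1.56e-04) and by 0.32 ± 0.030 (adjusted p = 2.05e-13) on the log2 scale, with no overlap between any 2 groups. EIF4ENIF1, whose product carries eIF4E into the nucleus and to processing bodies, fell by 0.30 ± 0.077 at the higher dose (adjusted p = 7.91e-04). Its call at the lower dose, -0.23 ± 0.076 (adjusted p = 0.0150), was lost without untreated b (adjusted p = 0.0701), lower dose a (0.0791) or lower dose b (0.0566). Of the 50-base stretches of EIF4B, 66.1% also occur in other annotated genes, and for EIF4E the share was 47.4%, so reads of such copies may be split or left uncounted. Among tested genes of other factors, the share was 46.9% for EIF3F, 35.3% for EIF3L and 19.5% for EIF6.

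**Figure D3:**
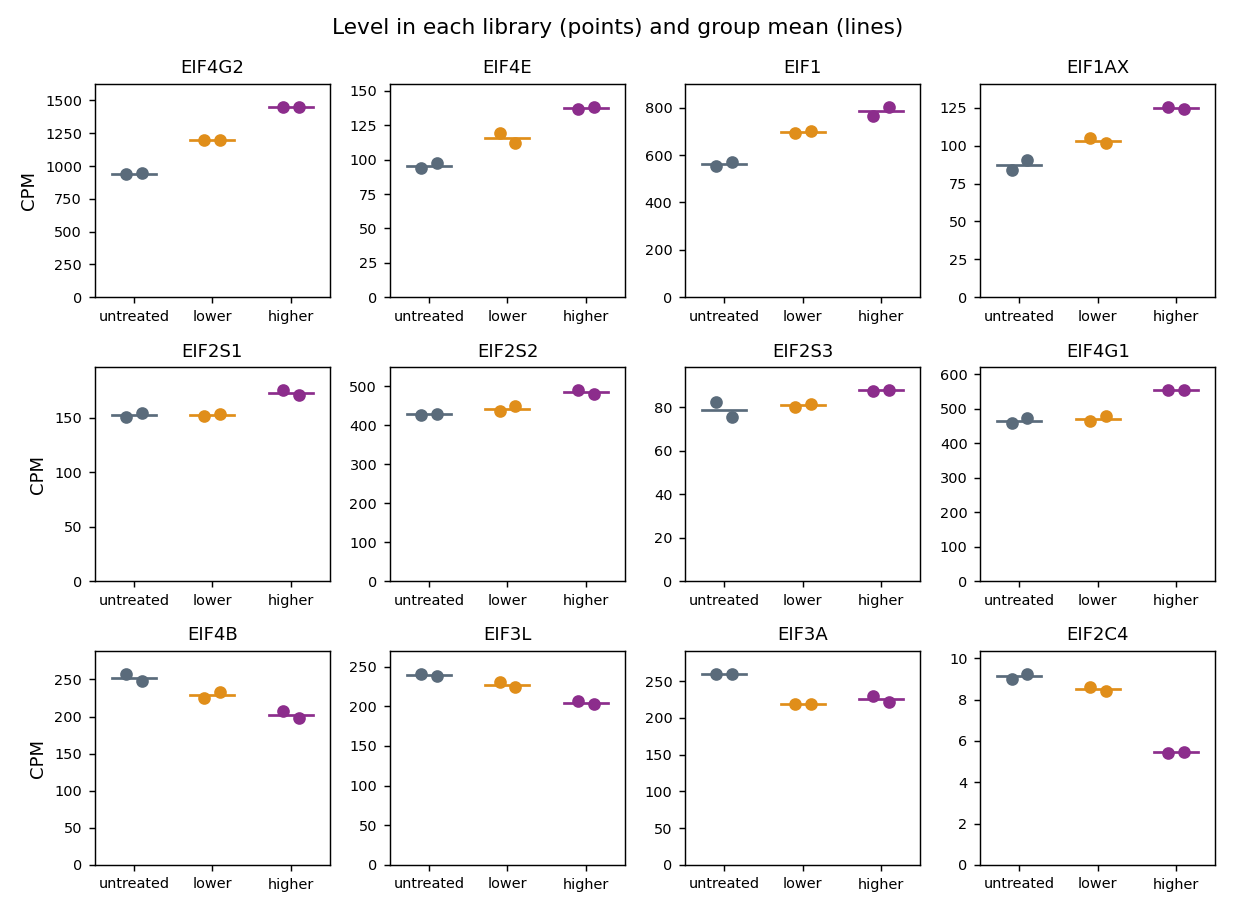
CPM in each library (points, y axes from 0, scaled for each gene) and group mean (lines) for 12 genes, in untreated cells and at the lower and the higher dose. EIF4G2, EIF4E, EIF1 and EIF1AX step up at each dose, the 3 eIF2 genes and EIF4G1 stand higher at the higher dose, and EIF4B, EIF3L, EIF3A and EIF2C4 are below untreated there.

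The EIF5 genes encode proteins of several kinds, and 4 of the 5 rose at both doses. Their median log2 fold changes were 0.14 and 0.27 over the 5 genes. EIF5, the GTPase activator that acts on eIF2 at the start codon, had 232 and 229.9 CPM untreated, 251 and 256 at the lower dose, 283 and 273 at the higher dose. It rose by 0.13 ± 0.029 (adjusted p = 2.36e-04) and by 0.26 ± 0.029 (adjusted p = 1.64e-11). EIF5B, the GTPase that joins the subunits, had 192 and 215 CPM untreated, 207 and 203 at the lower dose, 209 and 205 at the higher dose. It passed in no comparison, with 0.024 (95% interval -0.042 to 0.091, adjusted p = 0.560) at the higher dose, and its untreated libraries lay on both sides of the treated ones. Without untreated b it passed at both doses (adjusted p = 0.0401 and 0.00672). EIF5A carries the hypusine modification and mainly helps elongation and termination. It had 1016 and 1018 CPM untreated, 1116 and 1123 at the lower dose, 1249 and 1238 at the higher dose, and it rose by 0.14 ± 0.025 (adjusted p = 1.58e-05) and by 0.29 ± 0.025 (adjusted p = 1.15e-14). EIF5, EIF5A and EIF5AL1 showed 3 groups without overlap. EIF5A2, the scarcer second gene, had 25.7 and 25.0 CPM untreated, 27.1 and 30.0 at the lower dose, 29.8 and 31.4 at the higher dose. Its log2 fold change at the higher dose, 0.27 ± 0.058 (adjusted p = 6.52e-05), was close to that of EIF5A, while its call at the lower dose was lost without untreated b (adjusted p = 0.120) or lower dose b (0.349). EIF5AL1 is a copy of EIF5A that rose by 0.30 ± 0.029 (adjusted p = 4.43e-13). EIF5A shares 36.0% of its 50-base stretches with EIF5AL1, and the copy took between 16.3% and 16.7% of the CPM of the pair in every library, so that the 2 genes cannot be told apart here. EIF6 keeps the large subunit from joining too early. It had 485 and 484 CPM untreated, 511 and 518 at the lower dose, 577 and 591 at the higher dose, with log2 fold changes of 0.087 ± 0.027 (adjusted p = 0.00896) and 0.27 ± 0.027 (adjusted p = 7.19e-13). The call of EIF6 at the lower dose was lost without lower dose b (adjusted p = 0.0905) and after the length and GC correction, at 0.043 (adjusted p = 0.186).

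The 4 EIF2C genes match the name rule but encode the Argonaute proteins of microRNA silencing, and 3 of them, EIF2C1, EIF2C2 and EIF2C3, passed in no comparison. EIF2C4 had 9.01 and 9.23 CPM in the untreated libraries, 8.59 and 8.40 at the lower dose, and 5.43 and 5.48 at the higher dose. It did not pass at the lower dose, -0.10 (95% interval -0.29 to 0.086, adjusted p = 0.437), and fell at the higher dose by 0.74 ± 0.11 (adjusted p = 2.00e-08), to 0.597 of the untreated level. The higher dose libraries were far below the other 4, on counts of 153 to 280 reads per library. Without the EIF2C genes and EIF5AL1, 24 of 42 tested genes rose and 7 fell at the higher dose.

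Over both dose steps, 11 of the 47 genes (23.4%) rose at the lower dose and rose again to the higher dose, a course that 8.26% of all tested genes followed. These were EIF1, EIF1AD, EIF1AX, EIF1B, EIF3J, EIF4E, EIF4G2, EIF5, EIF5A, EIF5AL1 and EIF6. Another 7 (14.9%, against 6.63% of all genes) did not pass at the lower dose and were then higher at the higher dose than in both other groups: the 3 eIF2 genes, EIF2B1, EIF3G, EIF3M and EIF4G1. A fall at both steps was seen in 3 genes, EIF2B2, EIF3L and EIF4B (6.38%, against 8.41% of all genes). EIF3A, EIF3D and EIF4ENIF1 (6.38%, against 7% of all genes) fell at the lower dose with no further change that passed between the doses. The 13 genes that passed in none of the comparisons were 27.7%, against 38.8% of all genes. After the length and GC correction 9 genes rose at both steps, EIF4G1 joining while EIF1B, EIF3J and EIF6 left, and 2 fell at both, EIF3L and EIF4B. The course with no call at the lower dose and a rise against both other groups then held 8 genes: the 3 eIF2 genes, EIF2B1, EIF3B, EIF3H, EIF3J and EIF6. The shares of all genes given above belong to the uncorrected fit, and those of the corrected courses were not computed. The 3 comparisons share libraries, so these courses are a description, not separate tests.

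Change in these libraries was related to transcript length. Over the 12957 tested genes with a length in GENCODE v29, Spearman's rho between length and the log2 fold change was -0.25 at the lower dose and -0.26 at the higher dose, so that short transcripts tended to be higher. Over the 47 initiation factor genes, whose transcripts ran from 760 to 7116 bases, rho was -0.14 and -0.083. Both are correlations across genes, which are not independent. After the correction for length and GC content, 11 of the 47 genes rose and 9 fell at the lower dose, in place of 14 and 6. At the higher dose 22 rose and 11 fell, in place of 25 and 8. Of all 12957 genes in the corrected fit, 1976 rose and 2061 fell at the lower dose and 3400 and 3837 at the higher dose. At the lower dose EIF3M passed as lower, at -0.13 (adjusted p = 1.96e-04), as did EIF2B3 at -0.14 (adjusted p = 0.0119), EIF4A2 and EIF4A3, and EIF4G1 passed as higher, at 0.10 (adjusted p = 7.60e-04). The calls of EIF2B2, EIF3I, EIF3J, EIF3K and EIF6 were lost there. At the higher dose EIF3M turned from 0.099 to -0.092 (adjusted p = 0.00388), and EIF3F, which had not passed, from 0.0096 to -0.078 (adjusted p = 0.00759). EIF3E and EIF3K turned to -0.030 (adjusted p = 0.347) and -0.053 (adjusted p = 0.0942), and EIF3K at the lower dose to -0.038 (adjusted p = 0.329). EIF3B, EIF4G3 and EIF2B5 newly rose at the higher dose, at 0.12 (adjusted p = 4.43e-05), 0.11 (adjusted p = 0.0145) and 0.095 (adjusted p = 0.0134). EIF3G, EIF3I and EIF2A no longer passed, at 0.018 (adjusted p = 0.584), 0.028 (adjusted p = 0.350) and 0.054 (adjusted p = 0.232). EIF1B kept its call at 0.23 (adjusted p = 5.78e-06), as did EIF6 at 0.17 (adjusted p = 1.50e-09) and EIF3A at -0.12 (adjusted p = 1.36e-04), and each of these values was over 1.5 times smaller than before. EIF4G1 rose more, by 0.38 (adjusted p = 1.38e-26). Between the doses EIF1B, EIF3G and EIF3M lost their calls, at 0.049 (adjusted p = 0.407), 0.021 (adjusted p = 0.578) and 0.035 (adjusted p = 0.362), and EIF3A and EIF3H gained one, at 0.090 (adjusted p = 0.00638) and 0.065 (adjusted p = 0.0457). EIF4G2 at 0.67 (adjusted p = 3.75e-49), EIF4E at 0.39 (adjusted p = 7.44e-20) and EIF4B at -0.33 (adjusted p = 2.00e-19) stayed past the threshold.

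**Figure D4:**
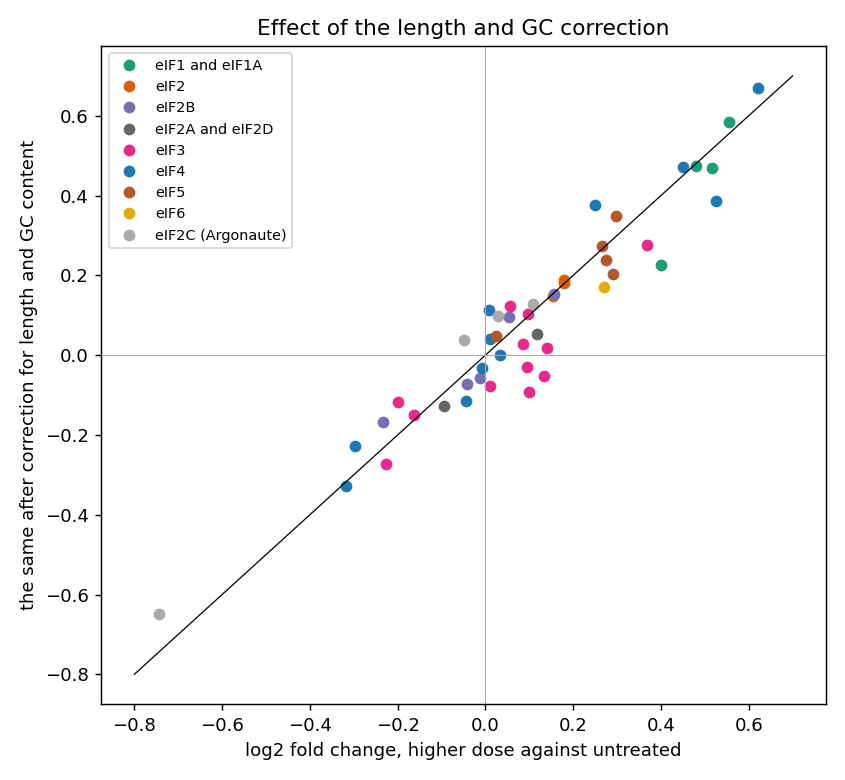
Log2 fold change at the higher dose against untreated before (x axis) and after (y axis) correction for transcript length and GC content, for the 47 tested genes coloured by factor, with the line of equal values. The eIF3 genes lie mostly to the lower right of the line, their median going from 0.090 to -0.042, while the eIF2 genes lie on it.

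The first bases of an mRNA can bear on how its translation responds to mTOR. Transcripts that begin with a C followed by a run of pyrimidines (a 5' terminal oligopyrimidine start) are translated in an mTOR-dependent way, a textbook property of ribosomal protein mRNAs. RefSeq start sites (GRCh38.p14) were matched for 44 of the 52 genes, with 59 starts. The 8 others were EIF2C2, EIF2S2, EIF3A, EIF3CL, EIF3E, EIF3G, EIF3H and EIF3L. A start was counted when its first base was C and the next 4 bases were each C or T. It was found in 9 of the 44 genes (20.5%), in 15.3% of their 59 starts, and in 4.07% of all 35116 starts in the table. Of all 27305 genes with a start, expressed here or not, 5.14% had it. Among tested genes with a start it was more frequent, as 770 had it and 9474 lacked it. Below are the 9 starts of initiation factor genes on the transcribed strand, 5' to 3', from 10 bases before the start to 20 bases from it on. The pyrimidine run from the first transcribed base is in capitals.
EIF2A, chr3:150546777-150546806, + strand: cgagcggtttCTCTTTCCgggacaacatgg
EIF2D, chr1:206612446-206612475, - strand: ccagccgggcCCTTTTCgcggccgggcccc
EIF2S3, chrX:24054946-24054975, + strand: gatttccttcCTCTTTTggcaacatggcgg
EIF3D, chr22:36529147-36529176, - strand: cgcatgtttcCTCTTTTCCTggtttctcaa
EIF3F, chr11:7987327-7987356, + strand: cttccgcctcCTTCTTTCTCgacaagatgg
EIF3K, chr19:38619178-38619207, + strand: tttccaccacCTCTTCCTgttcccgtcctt
EIF3M, chr11:32583821-32583850, + strand: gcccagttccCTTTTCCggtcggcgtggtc
EIF4A2, chr3:186783567-186783596, + strand: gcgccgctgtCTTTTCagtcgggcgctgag
EIF4B, chr12:53006446-53006475, + strand: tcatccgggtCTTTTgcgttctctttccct

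These 9 genes moved both ways. At the higher dose 4 rose and 3 fell, with a median log2 fold change of 0.0096 and a range from -0.32 (EIF4B) to 0.16 (EIF2S3). After the length and GC correction 1 of them, EIF2S3, rose and 6 fell (EIF2D, EIF3D, EIF3F, EIF3M, EIF4A2 and EIF4B), with a median of -0.092. The 31 tested genes whose annotated starts lack such a run had a median of 0.16, with 17 that rose and 3 that fell, and 0.15 after the correction, with 19 and 3. Among all tested genes 268 of 770 with such a start rose and 227 fell, with a median of 0.019. Of 9474 without it 2656 rose and 2822 fell, with a median of -0.0083. After the correction 239 of 769 with it rose and 228 fell, and 2468 of 9443 without it rose and 2852 fell. The medians were then 0.0070 and -0.018. The 5 genes with the highest log2 fold changes, EIF4G2, EIF1AD, EIF4E, EIF1AX and EIF1, were all among the 31 without such a run, against 9 with it. They were picked by these values, and their starts are shown with the first transcribed base in capitals.
EIF1, chr17:41688875-41688904, + strand: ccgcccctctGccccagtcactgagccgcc
EIF1AX, chrX:20141819-20141848, - strand: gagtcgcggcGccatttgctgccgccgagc
EIF1AD, chr11:66002138-66002167, - strand: cagcgccggaAgtacggttttcggagggat
EIF4E, chr4:98929114-98929143, - strand: tggagcggttGtgcgatcagatcgatctaa
EIF4G2 start 1, chr11:10807977-10808006, - strand: tgtcggaagcActtccctaacttgcgcctg
EIF4G2 start 2, chr11:10808907-10808936, - strand: acgccttagcGccagcagtgagtcggagct

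The E-box CACGTG, a palindrome read alike on both strands and bound by MYC among other factors, was searched in the 300 bases from 250 before to 50 after each start. It was found in 10 of the 44 genes (22.7%) and in 16.9% of their 59 starts, beside 7.26% of all 35116 starts. Of all 27305 genes with a start, expressed here or not, 8.77% had it. Among tested genes with a start it was more frequent, as 1270 had it and 8974 lacked it. EIF4E holds it at 2 places, EIF1B and EIF4B at 1 each, and these windows are shown with the E-box in capitals because the 3 genes moved in different directions.
EIF4E distal, chr4:98929341-98929370, - strand: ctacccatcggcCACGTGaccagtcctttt
EIF4E proximal, chr4:98929188-98929217, - strand: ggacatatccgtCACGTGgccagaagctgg
EIF1B, chr3:40309641-40309670, + strand: gcgcgggacggtCACGTGggaggggccgcg
EIF4B, chr12:53006422-53006451, + strand: gcccgctataatCACGTGattgcctcatcc

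Of the 10 genes with the E-box, 5 rose and 1, EIF4B, fell at the higher dose, with a median log2 fold change of 0.072. After the length and GC correction 4 rose and 2 fell, EIF3F joining EIF4B, with a median of 0.0042. Of 30 tested initiation factor genes without it, 16 rose and 5 fell, with a median of 0.10. After the correction 16 of these rose and 7 fell, with a median of 0.117. Among all tested genes with it, 403 of 1270 rose and 367 fell, with a median of 0.0047. Of 8974 without it 2521 rose and 2682 fell, with a median of -0.00845. After the correction 388 of 1266 with it rose and 369 fell, and 2319 of 8946 without it rose and 2711 fell. The medians were then 0.0064 and -0.021. A match describes the letters in this window and not binding of a factor.

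Regulators and partners of initiation were described from a list of 36 genes, 35 of them tested. At the lower dose 8 rose and 7 fell (22.9% and 20%, against 16.7% and 15.9% of all tested genes). At the higher dose 15 rose and 12 fell (42.9% and 34.3%, against 28.1% and 28.2%), with a median log2 fold change of 0.0081. PDCD4, an inhibitor of the eIF4A helicase that S6 kinase marks for breakdown, had 60.5 and 59.5 CPM untreated, 43.4 and 42.1 at the lower dose, 25.0 and 24.1 at the higher dose. It fell by 0.49 ± 0.045 (adjusted p = 5.54e-13) and by 1.29 ± 0.050 (adjusted p = 5.48e-29), the groups standing far apart. The ratio of PDCD4 to EIF4A2 in CPM was 0.163 and 0.161 untreated, 0.118 in both lower dose libraries, and 0.0711 and 0.0658 at the higher dose. EIF4EBP1, the binding protein that holds eIF4E away from eIF4G, had 157 and 164 CPM untreated, 191 and 197 at the lower dose, 216 and 222 at the higher dose. It rose by 0.44 ± 0.031 (adjusted p = 1.97e-18) at the higher dose, beside the rise of EIF4E. The ratio of EIF4EBP1 to EIF4E in CPM was 1.67 and 1.69 untreated, 1.598 and 1.761 at the lower dose, and 1.575 and 1.600 at the higher dose. The lower dose libraries overlapped both other groups, while both higher dose libraries lay below the untreated ones. EIF4EBP1 rose less after the length and GC correction, by 0.29 (adjusted p = 1.76e-15).

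PABPC1, the poly(A)-binding protein that contacts eIF4G, had 753 and 760.4 CPM untreated, 675 and 662 at the lower dose, 553 and 558 at the higher dose. Its log2 fold change at the higher dose was -0.45 ± 0.026 (adjusted p = 3.24e-21). PPP1R15A (GADD34), which directs removal of phosphate from eIF2 alpha, had 192 and 195 CPM untreated, 227 and 229.5 at the lower dose, 258 and 258 at the higher dose, and rose by 0.42 ± 0.029 (adjusted p = 2.44e-18). DOHH, the enzyme that completes the hypusine of eIF5A, had 24.4 and 26.1 CPM untreated, 28.6 and 27.1 at the lower dose, 34.7 and 33.9 at the higher dose, and rose by 0.44 ± 0.056 (adjusted p = 1.56e-09). In all 3, the higher dose libraries lay outside the range of the other libraries. Of 11 elongation and release factor genes, 2 rose and 4 fell at the lower dose (18.2% and 36.4%, against 16.7% and 15.9% of all tested genes). At the higher dose 4 rose and 3 fell (36.4% and 27.3%, against 28.1% and 28.2%), with a median log2 fold change of -0.017. After the length and GC correction 15 of the regulators rose and 10 fell at the higher dose. Of the elongation and release factor genes 3 rose and 5 fell, with a median of -0.094. Of all 12957 genes in the corrected fit, 3400 rose and 3837 fell at the higher dose.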

How the data were processed

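Polyadenylated RNA from EGFP-L10a pull-downs was sequenced in 6 libraries, grouped by the treatment labels. The files the authors deposited, 1 per library, hold raw read counts for each gene symbol, without normalization. The tools listed in the submitters' processing notes are TopHat 1.4.0, CASAVA 1.8.1 and HTSeq, with human build hg19. No source used here names the annotation or says whether counting used strand. HTSeq's summary lines (9.40% to 10.2% of reads) were left out. Differences were tested in R 4.3.3 by edgeR 4.0.16 with TMM scaling, filterByExpr by group, robust quasi-likelihood fit of 3 group means over all 6 libraries with 3 residual degrees of freedom, two-sided F tests, and Benjamini-Hochberg adjustment over all 13548 tested genes at 0.05. The SE was taken as the size of the log2 fold change divided by the root of its F value, and the 95% intervals use it. TMM takes most genes as unchanged, so each change is relative to the rest. A count of 0 allows up to 3 reads, 0.0991 to 0.114 CPM, for counting error only.

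The members and lists were chosen with earlier results of these data known. Values in every library are given for the tested genes of eIF2, eIF2B and eIF4 (without EIF4ENIF1), and for EIF5, EIF5A, EIF5A2, EIF5B, EIF1, EIF1B, EIF1AX and EIF6. They are also given for the 3 highest and 3 lowest eIF3 genes. Further ones are other members past the threshold by at least 0.3 on the log2 scale at the higher dose, and regulators past it by at least 0.4. Length and GC content came from GENCODE v29 transcripts (95.6% of tested genes), with a loess offset of span 0.3. Start sites are RefSeq's. The scripts were tested on simulated counts. The 13 alternatives were RLE size factors, DESeq2 1.42.0, other filters, fits of the groups compared, a replicate block, the length and GC correction and leaving out each library.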

Additional observations from a re-analysis of the deposited data

How the results depend on the processing

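Of the calls of initiation factor genes, 12 of 20 at the lower dose, 24 of 33 at the higher dose and 17 of 24 between the doses stayed past the threshold under all 13 alternatives. With DESeq2, 3 in place of 6 initiation factor genes fell at the lower dose, and the calls over all genes came to 2562 in place of 4418 at the lower dose and 2758 in place of 4612 between the doses. DESeq2 also ended 7 single calls at the lower dose (EIF2B2, EIF3I, EIF3J, EIF3K, EIF3L, EIF4ENIF1 and EIF5A2), 3 at the higher dose (EIF2A, EIF2D and EIF4E3) and 3 between the doses (EIF1B, EIF2D and EIF2S3), with adjusted p from 0.0740 to 0.203. Leaving out 1 library gave 3 to 6 that fell at the lower dose, the 3 without lower dose replicate b. Under the length and GC correction, EIF3K at the lower dose turned to -0.038 (adjusted p = 0.329), and at the higher dose EIF3E to -0.030 (adjusted p = 0.347), EIF3F to -0.078 (adjusted p = 0.00759), EIF3K to -0.053 (adjusted p = 0.0942) and EIF3M to -0.092 (adjusted p = 0.00388), and the cause was not tested. Changes of sign between values that did not pass were not counted. Libraries with the same letter did not deviate together (correlations -0.045, 0.0025 and -0.035). These values cannot show whether libraries with the same letter were handled together, which the labels do not say. With a replicate block 12 initiation factor genes rose at the lower dose in place of 14, EIF3I and EIF3K no longer passing (adjusted p = 0.0569 and 0.0622), and 25 rose and 8 fell at the higher dose as before. With 2 libraries a group, small changes rest on few libraries.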

Other observations

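HTSeq's lines for reads that could not be given to 1 gene moved slightly with the groups. Reads in overlapping genes were 1.87% and 1.90% of all reads untreated, 1.98% and 1.97% at the lower dose, and 2.06% and 2.08% at the higher dose, with no overlap between the groups. These lines name no gene, so whether reads of EIF4A1, whose read-through gene overlaps it, are among them was not tested. Among the elongation factor genes, which were not chosen for naming, EEF1E1 was the highest in log2 fold change at the higher dose and EEF1A1 the lowest, at 0.63 and -0.37. With the length and GC correction these values were 0.35 and -0.30. Both were singled out after their values were seen. EEF1A1 encodes the factor that delivers aminoacyl-tRNA, and EEF1E1 a scaffold protein of the tRNA synthetase complex.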
